A study of Mus musculus with 3 samples.

Results

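The 10 genes described here encode muscle ankyrin repeat proteins (Ankrd1, Ankrd2 and Ankrd23), LIM-only proteins (Csrp1, Csrp2, Csrp3, Fhl1 and Fhl3) and Xin actin-binding repeat proteins (Xirp1 and Xirp2). They were chosen by symbol from the 15403 named genes of a single table, and all 10 were found. Ankrd23 entered because it was among the extremes of YB-1 over IgG, so its ratio in that comparison is a description of how it was chosen.

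RNA was recovered by immunoprecipitation and sequenced (RIP-seq) from lysates of the mouse myoblast line C2C12, which differentiates when serum is lowered. The lysates were taken at day 2 in medium with 2% horse serum. By the labels all 3 groups share this line, medium and time, and the names of all 3 library columns end in siCtl, which the labels do not explain. The labels set them apart by the antibody: 1 library with anti-YB1 (here YB-1), 1 with anti-HuR (HuR) and 1 with control IgG. With 1 library per antibody no difference has a replicate check. Intervals in the text are at the 95% level by the exact Clopper-Pearson method and hold counting error alone, because there is 1 library per antibody. Without molecular identifiers 2 reads may stem from 1 molecule, so the intervals may be too narrow even for counting error.

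Muscle ankyrin repeat proteins bind the N2A region of titin, the giant spring protein of the sarcomere, and also enter the nucleus. They are known as stress and stretch response genes of heart and skeletal muscle, and the protein made by Ankrd1 is known to bind YB-1 itself. LIM-only proteins are adaptors built from zinc-binding LIM domains, which link actin, the Z-disc and transcription factors. Xin repeat proteins bind and stabilise actin filaments at adhesion sites and in regenerating muscle. HuR, encoded by Elavl1, is known to bind AU-rich and U-rich stretches in the 3' UTRs of mRNAs. YB-1, encoded by Ybx1, is a cold-shock domain protein that binds many mRNAs, with CAUC described as a preferred motif.

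The 3' UTRs of 4 members held the AU-rich pentamer ATTTA, searched on the transcript strand only, with overlapping copies counted. One annotated transcript per gene was read (GENCODE M21, GRCm38). Ankrd1 had 4 copies in 742 nt, Csrp1 had 3 in 1112 nt, Csrp3 had 1 in 232 nt and Fhl1 had 1 in 1348 nt. The other 6 members had none. For comparison, 68.0% of 11888 genes held at least 1 copy. Genes with a 3' UTR within 2-fold of the member's length were also counted. The share of these with a copy was 66.1% for Ankrd1, 77.0% for Csrp1, 33.8% for Csrp3 and 80.9% for Fhl1. For Xirp1, whose 2271 nt held none, it was 90.4%. The median of such genes was 1 copy for Ankrd1, 2 for Csrp1, 0 for Csrp3, 2 for Fhl1 and 3 for Xirp1. The windows below show 1 stretch of each of the 4 members, with every ATTTA in capitals. That of Ankrd1 holds an overlapping pair.
Ankrd1, chr19:36112494-36112523, minus strand: ttattcctacctATTTATTTAtttcatagc
Csrp1, chr1:135751818-135751847, plus strand: ccaagtatttgcATTTAtcagtggtccaga
Csrp3, chr7:48830433-48830462, minus strand: agatgcttcactATTTActattcttgggat
Fhl1, chrX:56792171-56792200, plus strand: gatcatattaagATTTAgcaaagagcaacc

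The motif CATC, read in the same way for YB-1, occurred in 8 members and in 84.4% of the 11888 genes. Ankrd2 and Fhl3, whose 3' UTRs were the shortest at 103 and 124 nt, held none. Xirp1 had 14 copies, or 6.16 per kilobase, and Csrp1 had 8, or 7.19 per kilobase, against a median of 3.24 per kilobase over all genes. Such matches describe the annotated sequence and are not binding sites.

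The IgG library had 10630155 reads in the table, against 24797504 in HuR and 39112714 in YB-1, so it was the shallowest library. Among the 10 genes, Ankrd23, Csrp3, Fhl1 and Xirp2 nevertheless had their most reads in IgG, while Ankrd1, Csrp1, Csrp2 and Fhl3 had their fewest there. Levels are read counts divided by the authors' size factor for each library, and are called normalized counts. A single IgG read was worth 2.29 of these counts, a HuR read 0.862 and a YB-1 read 0.531. Muscle markers were present in each library: Myog, a transcription factor of differentiation, stood at 45679 (YB-1), 229849 (HuR) and 13754 (IgG) normalized counts. The IgG library also held RNA of cell types that C2C12 cells should lack. The 9 endothelial markers had summed levels of 72.3 with YB-1 and 1.72 with HuR, with 8 of 9 at 0 reads in HuR, against 12189 in IgG, where none was at 0. The 8 adipocyte markers summed to 95.1, 128 and 16304, with Adipoq and Plin1 at 0 reads in YB-1 and HuR. The 18 adult skeletal muscle markers summed to 317979, 195589 and 1671646. Of 9 heart markers in the table, sums were 2468, 3747 and 2061, with 5, 4 and 0 markers at 0 reads. Single heart markers went in different directions: Myh6 stood at 2111, 2299 and 831, and Sln at 0, 0 and 780. The 7 blood and immune markers in the table summed to 15.4, 0 and 934, with 6, 7 and 0 at 0 reads. The part of these differences in the ratios to IgG below was not tested.

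As a share of all reads, the 10 genes made up 0.185% of the YB-1 library (0.183 to 0.186), 0.195% of the HuR library (0.194 to 0.197) and 0.997% of the IgG library (0.991 to 1.00). Without Xirp2 the interval of the IgG share was 0.695% to 0.705%. The summed share was thus similar and small in both antibody libraries and larger in the IgG library. Much of the IgG share came from few genes, with Fhl1 alone at 0.400% and Xirp2 at 0.297%. Ankrd23, chosen by YB-1 over IgG, had 12073 of the IgG reads. By level, Ankrd1, Csrp1 and Csrp2 were lowest in IgG, so the sum does not describe each gene.

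**Figure D1:**
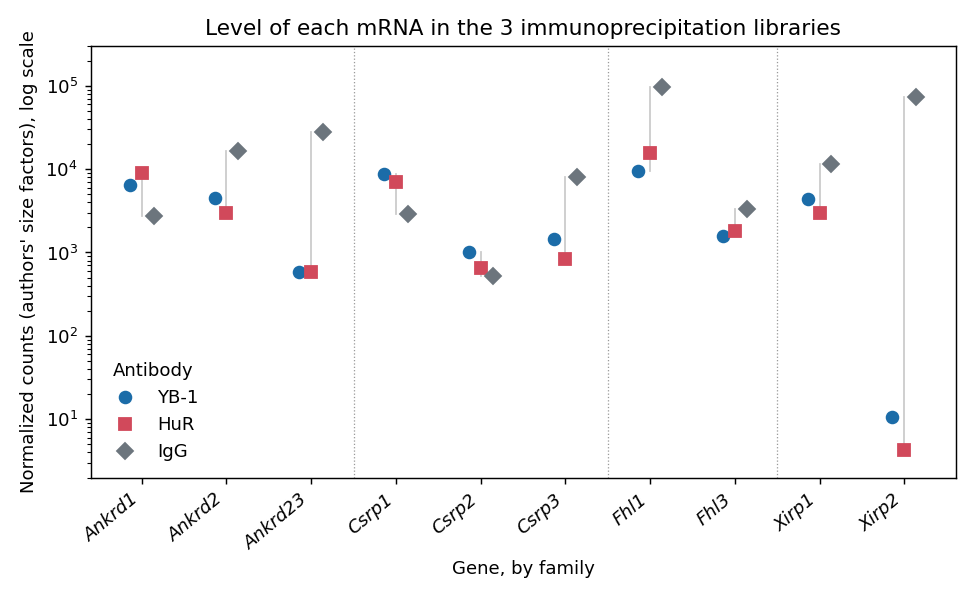
Normalized counts (log axis) of the 10 genes in the YB-1, HuR and IgG libraries, 1 point per library, with grey lines spanning the range of a gene and dotted lines separating the families. Ankrd1, Csrp1 and Csrp2 are lowest in IgG, the other 7 genes are highest in IgG, and Xirp2 has the widest range, from 4.31 in HuR to 72379 in IgG.

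Relative to IgG the 10 mRNAs went in both directions. In YB-1 over IgG, 2 of 10 were higher by 2-fold or more and 7 were lower by as much. Over all 13022 genes with a ratio, 17% were this much higher and 32.8% this much lower. The median log2 ratio of the 10 was -1.62, against -0.17 for all genes. In HuR over IgG, 2 were higher past the same limit and 6 lower, beside 18.9% and 31.1% of 13024 genes. Their median was -2.21, against -0.16. With a 4-fold limit, 0 members were higher and 4 lower in YB-1 over IgG (2.99% and 20.3% of all genes), and 0 and 5 in HuR over IgG (6.32% and 19.1%). Both comparisons use the same IgG library, so they are not independent of each other. Since the list was drawn up with results of YB-1 over IgG in view, nothing is read from its count in that comparison.

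Ankrd1, on chromosome 19 (36111961 to 36120099, minus strand, 9 exons), encodes the cardiac ankyrin repeat protein CARP, a target of the mechanosensitive coactivator YAP. Its levels were 6443 normalized counts with YB-1, 9078 with HuR and 2763 with IgG. It was lowest in IgG and highest in HuR. Against IgG the level was 2.33-fold higher in YB-1 (2.20 to 2.48) and 3.29-fold higher in HuR (3.10 to 3.49), the highest ratio of the 10 genes in HuR over IgG. In HuR it was 1.41-fold higher than in YB-1 (1.37 to 1.45). After recentring on ribosomal protein genes the YB-1 over IgG value of 1.22 (log2) became 0.07, with an interval from -0.02 to 0.15 that held 0. The HuR over IgG value of 1.72 became 1.23 (1.14 to 1.31), which did not hold 0.

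Ankrd2, also on chromosome 19 (42036000 to 42045110, plus strand, 9 exons), encodes a stretch-responsive protein of slow skeletal muscle fibres. Its levels were 4519 with YB-1, 2989 with HuR and 16281 with IgG. IgG was the highest library and HuR the lowest, so its order of libraries was opposite to that of Ankrd1. The level in IgG was 3.60-fold that in YB-1 (3.49 to 3.72) and 5.45-fold that in HuR (5.23 to 5.67).

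Ankrd23, on chromosome 1 (36530188 to 36536883, minus strand, 9 exons), encodes DARP, a family member linked to energy metabolism. Its levels were 589 with YB-1, 581 with HuR and 27704 with IgG. Both antibody libraries were far below IgG, by 47.0-fold for YB-1 (44.2 to 50.04) and 47.7-fold for HuR (44.1 to 51.6). Between HuR and YB-1 its log2 ratio was -0.02 with an interval from -0.16 to 0.12, the only one of the 10 besides Xirp2 whose interval held 0 on the authors' scaling, and it was 0.04 when recentred on all genes and 0.72 when recentred on ribosomal protein genes. The exons of Ankrd23 share 2074 of their 2335 nt on the same strand with the annotated gene Gm42417. The reads of the 2 genes cannot be told apart there. Of 1915 windows of 50 nt in the Ankrd23 transcript, 1612 were also found in Gm42417. Gm42417 has no row in the table.

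For Ankrd23 the authors' deposited table gives -2.53 ± 1.11 (standard error) as the moderated log2 value of YB-1 over IgG, with an unadjusted p of 0.0223 and an adjusted p of 0.845 (DESeq2, 1 library per antibody). It was the tenth lowest by this measure, at place 10 of 11153 genes with a mean of 50 or more. Cd36 lay just before it at -2.53 and Ldhb just after it, outside the extremes, at -2.53. No gene of the table passed an adjusted p of 0.05.

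Because size factors cancel within a library, the make-up of the ankyrin repeat family can be compared without any choice of scaling. Per kilobase of exon, Ankrd1 exceeded Ankrd23 by 12.6-fold in YB-1 (11.9 to 13.5) and 18.1-fold in HuR (16.7 to 19.6), whereas in IgG Ankrd23 exceeded Ankrd1 by 8.67-fold (8.18 to 9.21). Ankrd1 made up 43.0% of the family's reads per kilobase with YB-1 and 61.0% with HuR, but 4.97% with IgG. Ankrd2 made up 53.6%, 35.6% and 52.0%. Ankrd23 made up 3.40%, 3.38% and 43.1%. Its reads, also in the ratio to Ankrd1, may include reads of Gm42417, which shares most of its exon sequence. Because Ankrd23 was chosen as an extreme of YB-1 over IgG, its contrasts of YB-1 with IgG here restate that choice in part. This holds for its share and for its ratio to Ankrd1, and HuR is set against the same IgG library. The antibody libraries differed from each other in the order of Ankrd1 and Ankrd2: Ankrd2 was 1.24-fold higher than Ankrd1 in YB-1 (1.21 to 1.28), and Ankrd1 was 1.71-fold higher than Ankrd2 in HuR (1.65 to 1.78).

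**Figure D2:**
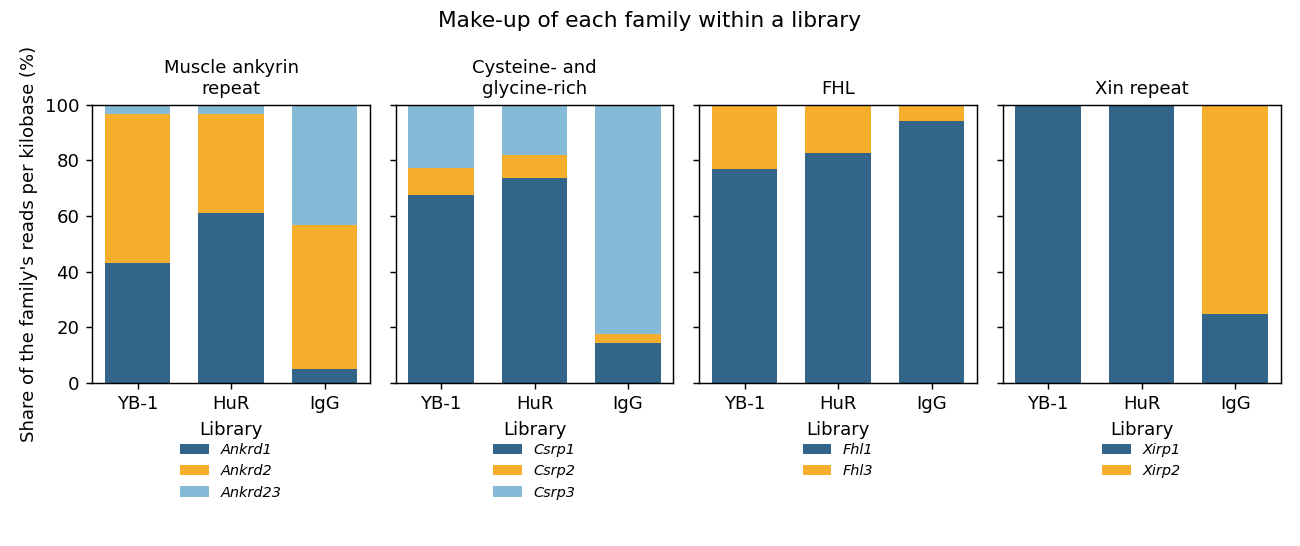
Share of each family's reads per kilobase of exon (%) taken by each member in the YB-1, HuR and IgG libraries, as stacked bars with 1 library per bar. In IgG the shares of Ankrd23 (43.1%), Csrp3 (82.6%) and Xirp2 (75.3%) are larger than in YB-1 or HuR, and the FHL panel changes least. Ankrd23 was chosen by its YB-1 over IgG ratio, so its difference between these libraries restates that choice in part.

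The cysteine- and glycine-rich proteins are small adaptors that bind alpha-actinin and zyxin. Csrp1 (chromosome 1, 135720061 to 135752232, plus strand, 6 exons) is broad and high in smooth muscle. Its levels were 8824 normalized counts with YB-1, 7061 with HuR and 2898 with IgG. IgG was the lowest library, by 3.04-fold against YB-1 (2.88 to 3.23) and 2.44-fold against HuR (2.30 to 2.59). In YB-1 over IgG its log2 value, 1.61, was the highest of the 10 genes, and 824 of 13022 genes were at or above it.

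Csrp2 (chromosome 10, 110919789 to 110939622, plus strand, 6 exons), also known from smooth muscle, was the least abundant of its family per kilobase in each library. Its levels were 1022 with YB-1, 644 with HuR and 521 with IgG, where it rested on 227 reads. YB-1 was highest, at 1.96-fold over IgG (1.71 to 2.26), just short of 2-fold. In HuR over IgG its log2 ratio was 0.31 (0.09 to 0.53), and after recentring on ribosomal protein genes the value was -0.18 in both comparisons, with intervals from -0.38 to 0.02 and from -0.40 to 0.04 that held 0.

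Csrp3 (chromosome 7, 48830398 to 48848033, minus strand, 6 exons) encodes the muscle LIM protein MLP, which sits at the Z-disc of striated muscle. Its levels were 1431 with YB-1, 829 with HuR and 8022 with IgG. Unlike Csrp1 and Csrp2 it was highest in IgG, by 5.61-fold against YB-1 (5.33 to 5.90) and 9.67-fold against HuR (9.004 to 10.4). Per kilobase, Csrp1 exceeded Csrp3 by 2.95-fold in YB-1 (2.83 to 3.07) and 4.07-fold in HuR (3.81 to 4.36), while in IgG Csrp3 exceeded Csrp1 by 5.79-fold (5.43 to 6.18). Csrp3 thus made up 22.9% of its family with YB-1 and 18.1% with HuR, but 82.6% with IgG.

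The FHL proteins consist of LIM domains only and act on signalling at the sarcomere and on transcription. Fhl1 (chromosome X, 56731787 to 56793346, plus strand, 7 exons) is the form of adult skeletal muscle, and its mutation causes inherited myopathies in humans. Its levels were 9451 normalized counts with YB-1, 15675 with HuR and 97469 with IgG. Per kilobase it was the most abundant of the 10 in HuR and IgG. IgG exceeded YB-1 by 10.3-fold (10.1 to 10.5) and HuR by 6.22-fold (6.11 to 6.33). In HuR it was 1.66-fold higher than in YB-1 (1.62 to 1.69), the highest ratio of the 10 genes in that comparison.

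Fhl3 (chromosome 4, 124700701 to 124708611, plus strand, 6 exons), known to bind the myogenic factor MyoD, stood at 1588 with YB-1, 1835 with HuR and 3307 with IgG. Its libraries lay closer together, with IgG 2.08-fold over YB-1 (1.95 to 2.22) and 1.80-fold over HuR (1.68 to 1.93). Fhl1 exceeded Fhl3 per kilobase in each library, by 3.32-fold (YB-1), 4.77-fold (HuR) and 16.5-fold (IgG) (15.6 to 17.4). Of 1090 windows of 50 nt in the Fhl3 transcript, 80 were also found in another annotated gene, Gm13898, so part of its reads may not be unique.

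The Xin repeat genes differed most. Xirp1 (chromosome 9, 120013755 to 120023598, minus strand, 3 exons) encodes Xin, which is induced in damaged and regenerating fibres. Its levels were 4395 with YB-1, 2960 with HuR and 11572 with IgG. The IgG level was 2.63-fold that of YB-1 (2.54 to 2.73) and 3.91-fold that of HuR (3.74 to 4.08), a range similar to that of Ankrd2.

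Xirp2 (chromosome 2, 67446002 to 67526614, plus strand, 9 exons) encodes myomaxin, a target of MEF2 in striated muscle. It stood at 10.6 in YB-1, from 20 reads, and 4.31 in HuR, from 5 reads, against 72379 in IgG, from 31542 reads. The mRNA was therefore nearly absent from both antibody libraries and the fifth most abundant of the 10 in IgG per kilobase. IgG exceeded YB-1 by 6811-fold (4409 to 11152) and HuR by 16792-fold (7195 to 51718). No gene of 13024 had a lower log2 ratio of HuR over IgG than its -14.04, and 9 of 13022, itself included, were at or below its -12.73 in YB-1 over IgG. An annotated antisense gene, Gm13601, overlaps 168 nt of its exons, and whether reads were counted by strand is not given in the sources used here.

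For Xirp2 the authors' deposited table gives a moderated log2 value of -0.63 ± 0.74 (standard error), beside an unmoderated value of -12.73. By the moderated value it lay at place 3438 from the lowest of 11153 genes, far behind Ankrd23 at place 10, although its unmoderated fold was larger. The other members kept their order more closely, from 1.27 for Csrp1 and 0.95 for Ankrd1 to -2.13 for Fhl1 in the deposited moderated values. Adjusted p was 0.845 for each of the 10.

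**Figure D3:**
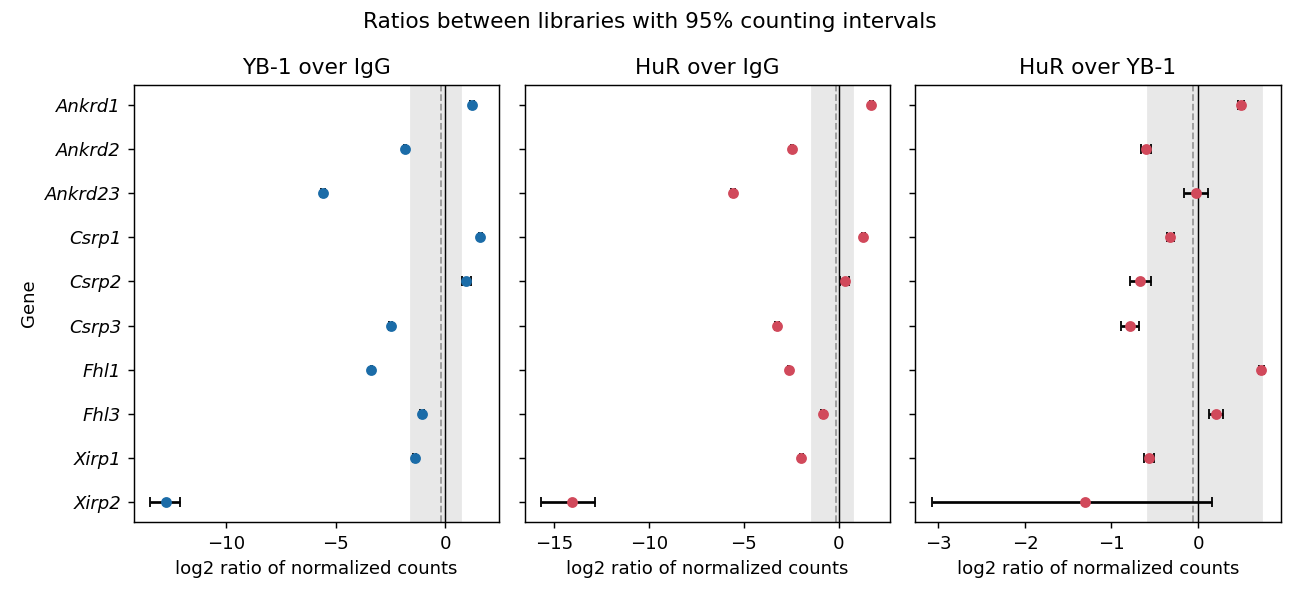
The log2 ratio of normalized counts for each gene in the 3 comparisons (points) with 95% counting intervals (bars), and the median (dashed line) and quartiles (grey band) of all genes. Ratios to IgG spread from -14.04 to 1.72, whereas HuR over YB-1 stays between -1.30 and 0.73, and there the sign of Ankrd2, Ankrd23, Csrp1, Csrp2 and Xirp1 turns above 0 after recentring on ribosomal protein genes, where the interval of Csrp2 (-0.05 to 0.19) holds 0.

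The ratio of HuR to YB-1 takes no reads from IgG, although the size factors and the mean of 10 that genes had to reach were taken over all 3 libraries. Here 9 of the 10 mRNAs were within 2-fold, as were 68.2% of 12238 genes. The remaining member was lower in HuR and 0 were higher, beside 12% and 19.8% of all genes past 2-fold in these directions. Past 4-fold there were 0 members, beside 3.93% of genes lower and 7.89% higher. The median of the 10 was -0.45, against -0.06 for all genes, and it turned to 0.29 after recentring on ribosomal protein genes, which themselves had a median of -0.74. The member past 2-fold was Xirp2, at a log2 ratio of -1.30, and its interval from -3.07 to 0.16 held 0 at a depth of 25 reads over both libraries. It reached the mean of 10 only through its level in IgG. With the mean taken over YB-1 and HuR alone, a choice made after the data were seen, 9 members remained and 0 were past 2-fold in either direction, beside 10.6% of 11868 genes lower and 19.3% higher. Their median was then -0.32.

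Fhl1 (0.73), Ankrd1 (0.49) and Fhl3 (0.21) had log2 ratios of HuR over YB-1 above 0, and kept that sign under each scaling tried. Fhl1 and Ankrd1 each had at least 1 ATTTA in the 3' UTR, and Fhl3 had none. Csrp3 was lowest among the well-covered members, at -0.79 (-0.89 to -0.68), and after ribosomal recentring its value was -0.05 with an interval from -0.16 to 0.06 that held 0. It holds 1 ATTTA as well. Ankrd2 (-0.60), Csrp2 (-0.67), Xirp1 (-0.57) and Csrp1 (-0.32) lay below 0 on the authors' scaling and above 0 after ribosomal recentring, at 0.14, 0.07, 0.17 and 0.41, where the interval of Csrp2 held 0. On the authors' scaling, members with ATTTA lay on both sides of 0. After ribosomal recentring Ankrd1, Fhl1 and Csrp1 were above 0, and Csrp3 did not differ from 0 beyond counting error. Members without ATTTA lay above 0 there too, namely Fhl3 (0.94), Ankrd23 (0.72), Xirp1 (0.17) and Ankrd2 (0.14). The intervals of Csrp2 and Xirp2, also without it, held 0. This recentring adds 0.74 to the ratio of every gene, and a link to ATTTA was not tested.

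Within each library the genes can be ordered by reads per kilobase of exon, scaled to the library's total reads (RPKM). In YB-1 the order began with Csrp1 (217), Ankrd2 (191), Ankrd1 (154) and Fhl1 (151), and the last pair did not differ beyond counting error, with a ratio of 1.02 (0.99 to 1.04). It went on with Csrp3 (73.8), Fhl3 (45.5), Xirp1 (36.3), Csrp2 (30.9) and Ankrd23 (12.2), and ended with Xirp2 (0.0428). In HuR the order began with Fhl1 (244), Ankrd1 (211), Csrp1 (169) and Ankrd2 (123) and ended with Csrp2 (19.0), Ankrd23 (11.7) and Xirp2 (0.0169). In IgG it began with Fhl1 (1327), Ankrd2 (587), Ankrd23 (487), Csrp3 (352) and Xirp2 (248). Then came Xirp1 (81.3) and Fhl3 (80.6), which did not differ beyond counting error, and last Csrp1 (60.8), Ankrd1 (56.1) and Csrp2 (13.4). The same 4 genes, Csrp1, Ankrd1, Ankrd2 and Fhl1, headed both antibody libraries, and Ankrd1 and Csrp1 stood near the end in IgG.

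Genes whose pattern over the 3 libraries lay closest to a member were found by the Euclidean distance between centred log2 normalized counts, among 10665 genes. With 3 values per gene such likeness is loose. Closest to Ankrd1 was Cdon (distance 0.01), a cell-surface receptor that promotes myoblast differentiation, at 5996, 8504 and 2563 normalized counts in YB-1, HuR and IgG in turn. Closest to Csrp1 was the kinase gene Pak1 (0.0027), and closest to Xirp1 was the natriuretic peptide receptor gene Npr2 (0.013). For Ankrd23 the closest was Hgf, which encodes hepatocyte growth factor, at 0.14, with 24.97, 26.7 and 1342. Ankrd23 was chosen by its YB-1 over IgG ratio, which enters this distance. The distance is therefore not read as a trait of the gene. Xirp2 stood still further apart, with Acacb, a fatty acid metabolism gene of muscle, at 0.45, Eef1a2, the elongation factor form of mature muscle and neurons, at 0.66, and Cmya5, which encodes the sarcomeric protein myospryn, at 0.73. These 3 stood at 2.13, 4.78 and 6.38 normalized counts in YB-1 and at 9904, 33394 and 52264 in IgG. Genes at 0 reads in YB-1 or HuR were outside the search, and the level of Acacb in HuR, 0.862, was that of 1 read. With 20 reads of Xirp2 in YB-1 and 5 in HuR, its distances rest on few reads and are not read as a trait of the gene.

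Related genes gave the setting of these values. Of 37 other LIM domain genes, 35 were in the table and 33 passed a mean of 10. Past 2-fold, 13 of the 33 were higher and 10 lower in YB-1 over IgG, beside 17% and 32.8% of all genes, and the median log2 ratio was 0.23. In HuR over IgG the counts were 8 and 10, beside 18.9% and 31.1%, with a median of 0.21. These medians turned to -0.93 and -0.28 after ribosomal recentring. Crip2, a small LIM-only gene, stood at 30943, 20530 and 7598 normalized counts in YB-1, HuR and IgG. The Z-disc genes Nrap and Ldb3 went the opposite way, at 2814, 2758 and 79430 and at 4576, 5407 and 49528. Zyx, which encodes the focal adhesion protein zyxin, stood at 20421, 16909 and 6526. Fhl2, the relative of Fhl1 and Fhl3 known from the heart, was nearly level at 608, 568 and 597.

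A list of other ankyrin repeat genes, which also holds the small muscle gene Smpx, had 15 measured members. In YB-1 over IgG 0 were higher (all genes 17%) and 10 lower (32.8%) past 2-fold, with a median of -1.59. In HuR over IgG the counts were 0 (18.9%) and 11 (31.1%), with a median of -1.92. Asb2, a ubiquitin ligase subunit of muscle, stood at 980, 714 and 9645, and Smpx at 3080, 1757 and 9147.

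Titin, Z-disc and adhesion partners of the members were mostly higher in IgG. In YB-1 over IgG, 17 of 20 measured were lower past 2-fold (all genes 32.8%) and 0 higher (17%), with a median of -3.48. In HuR over IgG 17 were lower (31.1%) and 2 higher (18.9%), with a median of -4.21, and in HuR over YB-1 the median was 0.02, or -0.02 scaled to total reads and 0.75 after ribosomal recentring. Ttn, which encodes titin, stood at 20499, 24534 and 517686 normalized counts in the same order of YB-1, HuR and IgG, and Actn2, sarcomeric alpha-actinin, at 6351, 3863 and 124316. The 18 adult skeletal muscle markers had a median of -3.31 in YB-1 over IgG, with 15 lower past 2-fold and 0 higher, and of -3.70 in HuR over IgG, with 16 lower and 0 higher.

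Ankrd1 and Csrp1 are known targets of YAP and of serum response factor (SRF) respectively, so lists of such targets were read beside them. Among 22 SRF targets the median log2 ratio was 1.04 in YB-1 over IgG, with 11 higher past 2-fold (all genes 17%) and 2 lower (32.8%). It was 0.81 in HuR over IgG, with 8 higher (18.9%) and 2 lower (31.1%). After ribosomal recentring these medians were -0.12 and 0.32. Acta2, smooth muscle actin, stood at 216165, 87802 and 31914, and the sarcomeric actin gene Acta1 at 189406, 103252 and 689855. Among 17 genes of the YAP pathway, targets and factors together, medians were 0.04 and 0.35, or -1.12 and -0.14 after ribosomal recentring, with 2 higher and 3 lower in YB-1 over IgG and 4 of each in HuR over IgG, beside the same shares of all genes. The YAP targets Ctgf and Cyr61 stood at 2357, 4468 and 1574 and at 2390, 2378 and 2010. Amotl1 and Tead1, the genes of highest mean in this list, were instead highest in IgG. They stood at 4985, 6426 and 31244 and at 1227, 1741 and 14000. On the authors' scaling Csrp1, at 1.61, thus lay above the median of the SRF list in YB-1 over IgG, and Ankrd1, at 1.22, above that of the YAP list. After ribosomal recentring Csrp1 was at 0.45, above 0 beyond counting error, and Ankrd1 at 0.07, with the interval that held 0. The recentring shifts every gene alike, so both kept their places above the medians of these lists.

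**Figure D4:**
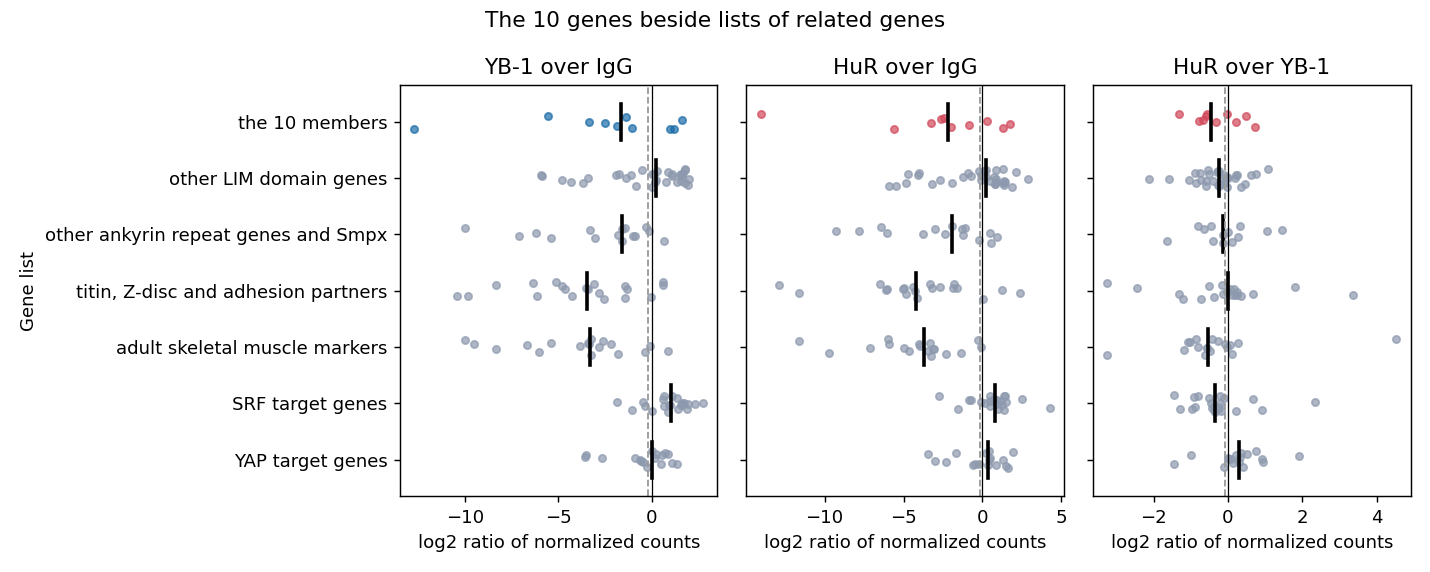
Log2 ratio of normalized counts for the 10 genes and 6 lists of related genes in the 3 comparisons; each point is 1 gene, black bars are list medians and the dashed line is the median of all genes. The titin and adult muscle lists lie below 0 in both ratios to IgG (medians -3.48 and -3.31 for YB-1, -4.21 and -3.70 for HuR), the SRF list above 0 (1.04 and 0.81, or -0.12 and 0.32 after recentring on ribosomal protein genes), and in HuR over YB-1 the medians lie between -0.52 and 0.31 on the authors' scaling.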

How the data were processed

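One table was used, in which the authors compared YB-1 with IgG and listed all 3 libraries. The submitters' processing notes name the aligner TopHat2 (2.0.10), the counter HTSeq (0.6.1), DESeq2 and the builds mm10 and GRCm38, without parameters. The deposited signal per gene is a read count divided by a size factor. The table also holds the authors' moderated and unmoderated log2 fold changes, a Wald score, a p-value and an adjusted p-value. Library columns were matched by antibody; their names all end in siCtl, whose meaning is not in the labels.

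To within 0.01 read, 100% of the normalized values were whole numbers of reads, so reads were recovered. No count model was fitted to them, since 1 library per antibody leaves no spread. Of 15428 named rows, 25 with a calendar date as symbol were left out (0.123% to 0.304% of reads). A log2 ratio is unmoderated, with a library at 0 set to 3 reads and no ratio where both had 3 or fewer. Counts over all genes used a mean (baseMean) of 10 or more, 13043 genes, and all 10 members passed. Lengths, positions and 3' UTRs came from GENCODE M21, with all 10 members matched by symbol. Reads per kilobase used merged exons of its basic set. Shared sequence was sought as identical 50 nt windows in other genes' transcripts. The ratio code was tested on simulated data. Python 3.11.15, NumPy 2.4.6, SciPy 1.17.1 and pandas 2.3.3 were used.

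Alternatives were scaling to total reads, recentring on ribosomal protein genes or on all genes, 1 added read, a 4-fold limit, other filters and the authors' moderated fold. Members and lists were chosen with earlier results of these data known. The text names all members, the nearest genes in pattern and up to 4 genes of highest mean from each list, and leaves some of these out; Myog, Adipoq, Plin1, Fhl2, Acta2, Zyx, Asb2, Ctgf, Cyr61 and Actn2 were named after their values were seen or for their role.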

Additional observations from a re-analysis of the deposited data

How the results depend on the processing

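No paired analysis was possible because each antibody has 1 library, and no replicate could be left out. Scaling to total reads shifted every ratio by 0.23 (YB-1 over IgG), 0.19 (HuR over IgG) and -0.04 (HuR over YB-1) on the log2 scale. The median of the 10 genes was -1.39 for YB-1 over IgG, -2.01 for HuR over IgG and -0.49 for HuR over YB-1 when scaled to total reads. Recentred on all genes it was -1.45, -2.05 and -0.38. Recentred on ribosomal protein genes it was -2.78, -2.70 and 0.29, so the last turned its direction. That recentring left 0 of the 10 genes at least 2-fold higher in YB-1 over IgG, 1 in HuR over IgG and 2 in HuR over YB-1, and 0 lower in HuR over YB-1. The share of all genes past 2-fold after it was not counted, so nothing is read from these counts. The recentring shifted every gene alike, by -1.16 (YB-1 over IgG), -0.49 (HuR over IgG) and 0.74 (HuR over YB-1) on the log2 scale. It also turned Csrp2 to -0.18 in both ratios to IgG, and in HuR over YB-1 turned Ankrd2 to 0.14, Ankrd23 to 0.72, Csrp1 to 0.41, Csrp2 to 0.070 and Xirp1 to 0.17; the 3 values of Csrp2 had intervals that held 0. Recentring on all genes turned Ankrd23 to 0.044 there. With a 4-fold limit, 0 of the 10 genes were higher in YB-1 over IgG (2.99% of all genes) or in HuR over IgG (6.32%). Lower were 4 in YB-1 over IgG (20.3%), 5 in HuR over IgG (19.1%) and 0 in HuR over YB-1 (3.93%). A filter on the mean of the YB-1 and HuR libraries, added after the data were seen, removed Xirp2. It left 0 lower past 2-fold in HuR over YB-1, beside 10.6% of 11868 genes, with a median of -0.32. The authors' moderated fold kept the direction of all 10 genes in YB-1 over IgG. Adding 1 read moved no member outside its counting interval. Depth limits Xirp2 most, with 20 reads in YB-1 and 5 in HuR.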

Other observations

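Other LIM domain genes outside the naming rule, picked after their values were seen, also stood apart between libraries. Lmcd1, a LIM gene of heart and muscle, stood at 134, 134 and 7969 normalized counts with YB-1, HuR and IgG, a log2 ratio of -5.90 in both ratios to IgG, close to the -5.56 and -5.58 of Ankrd23. Limch1 stood at 71.2, 98.3 and 4337. Tes, which encodes the focal adhesion protein testin, stood at 937, 1966 and 271. Its log2 ratio of HuR over YB-1 was 1.07 on the authors' scaling, just past 2-fold. Of the 33 measured other LIM domain genes only Tes was at least 2-fold higher in HuR than in YB-1 there, beside 19.8% of 12238 genes.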
